A study of Homo sapiens with 12 samples.

Results

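The genes described here encode proteins that hold neighbouring epithelial cells together: the cadherins CDH1, CDH2 and CDH6, the claudins CLDN1, CLDN2 and CLDN4, occludin (OCLN), the scaffold TJP1, plakoglobin (JUP) and the adhesion molecule F11R. Members were taken by symbol from the array's annotation, using probe sets with exactly 1 symbol and, for each gene, the one with the highest mean over the 12 arrays. This gave values for 9 of the 10 genes, out of 10050 genes tested; F11R was not analysed here. All 9 passed the filter on low values, and 22 probe sets in all belonged to them, of which 18 passed. The cells were HK-2, a line of human kidney proximal tubule cells immortalised in culture, so that all groups are 1 line and not the tubule itself. Each of 4 groups held 3 samples that the labels call biological replicates: cells given Ra for 12 h, cells given control vehicle for 12 h, cells given Ra for 48 h and cells given control vehicle for 48 h. The sources used here do not give the identity of Ra or its dose. All groups grew in the same medium with epidermal growth factor, hydrocortisone, insulin, transferrin and selenite, and the protocol has the cells nearly confluent when treatment began. Total RNA was measured on Affymetrix arrays, and all values are log2 expression values made with GCRMA.

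Epithelial cells are joined at their sides by a belt of junctions. In adherens junctions, cadherins of neighbouring cells bind each other, and catenins, plakoglobin among them, link their tails to the cytoskeleton. In the tight junction above them, claudins and occludin form strands that seal the space between cells, and TJP1 (ZO-1) ties the strands to actin. The claudins present set which ions pass: CLDN2 forms a pore for cations and water and is typical of the leaky proximal tubule, whereas CLDN1 and CLDN4 are counted among the sealing claudins. The proximal tubule is also known for carrying CDH6 and CDH2, with CDH1 more typical of the distal nephron.

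The start regions of the 4 genes that passed a test below and that had an entry, OCLN, CLDN2, JUP and CDH2, are shown as the 250 bases before the RefSeq start (GRCh38.p14). They are OCLN at chr5:69492297-69492546 on the + strand, CLDN2 at chrX:106899914-106900163 on the + strand, JUP at chr17:41786712-41786961 on the - strand and CDH2 at chr18:28177131-28177380 on the - strand. Capitals mark matches on either strand to CAGGTG (the E-box bound by SNAI and ZEB repressors), TGANTCA (AP-1) or GGGCGG (GC box); no matches overlap in these windows.
OCLN: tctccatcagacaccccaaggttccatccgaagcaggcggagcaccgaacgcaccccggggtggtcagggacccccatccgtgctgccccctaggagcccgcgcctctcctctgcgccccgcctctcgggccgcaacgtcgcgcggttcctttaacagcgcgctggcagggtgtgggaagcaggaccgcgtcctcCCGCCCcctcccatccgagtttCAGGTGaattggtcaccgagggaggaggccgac
CLDN2: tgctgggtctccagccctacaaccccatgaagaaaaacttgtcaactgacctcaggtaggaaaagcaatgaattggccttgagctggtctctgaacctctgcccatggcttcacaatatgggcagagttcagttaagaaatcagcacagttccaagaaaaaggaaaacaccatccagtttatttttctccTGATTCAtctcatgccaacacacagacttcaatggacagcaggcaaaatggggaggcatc
JUP: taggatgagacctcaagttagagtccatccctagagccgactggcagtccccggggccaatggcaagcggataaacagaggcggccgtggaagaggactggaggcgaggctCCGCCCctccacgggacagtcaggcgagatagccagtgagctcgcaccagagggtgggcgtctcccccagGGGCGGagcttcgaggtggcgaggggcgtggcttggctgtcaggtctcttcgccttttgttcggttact
CDH2: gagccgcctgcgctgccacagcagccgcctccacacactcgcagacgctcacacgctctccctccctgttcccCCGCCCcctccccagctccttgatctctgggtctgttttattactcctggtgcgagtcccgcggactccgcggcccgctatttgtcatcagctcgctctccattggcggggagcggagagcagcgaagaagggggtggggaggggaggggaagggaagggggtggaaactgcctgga
The OCLN window held CAGGTG 33 bases before the start and a GC box 55 bases before it. The CLDN2 window held an AP-1 match 60 bases before its start and no GC box, and its GC content was 46.0%, against 68.8% for OCLN, 63.6% for JUP, 66.0% for CDH2 and a median of 58.0% over all windows. The JUP window held GC boxes 139 and 69 bases before the start, and the CDH2 window one at 177 bases. Of 35116 windows of this length, 17.5% held CAGGTG, 6.6% held TGANTCA and 42.6% held a GC box. Forms of the cell cycle homology element were searched too: TTTGAA, in 13.3% of all windows, and the form TTCGAA, in 1.2%, but neither in these 4. A match is a description of letters, not a binding site. OCLN, JUP and CDH2 each had a further start window with other matches and CLDN2 one with none, and CLDN1, CLDN4 and TJP1 windows were searched in the same way: 14 windows of 7 genes in all.

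The number of arrays limits the precision, and the 48 h arrays varied more than the 12 h arrays. Between replicates, the median SD over all genes was 0.12 in each 12 h group, 0.22 with vehicle at 48 h and 0.43 with Ra at 48 h. Over the 9 junction genes the median SD was 0.17 with Ra and 0.13 with vehicle at 12 h, then 0.30 and 0.25 at 48 h. Ra 48 h replicate 2 stood apart, with an SD over its probe sets of 2.81 against 3.09 to 3.14 on the other 11 arrays. It was the lowest of its group for 8 of the 9 junction genes, as it was for 88.9% of all genes tested. Control 48 h replicate 3 was the nearest of its group to the 12 h control mean for 6 of the 9, and for 51.5% of all genes. Epithelial markers were measured (11 of the 13 with a probe set passed the filter, with array means of 9.04 to 9.57 over the list), but only 2 of 12 proximal tubule markers were, PAX8 and DPP4. The other 10, LRP2 (megalin) and CUBN (cubilin) among them, stayed under 5 on every array. Of other cell types, 0 of 8 distal nephron, 0 of 7 immune, 1 of 10 endothelial and 2 of 4 podocyte markers passed the filter. Array means over these lists were 2.88 to 3.15, 2.29 to 2.47, 2.86 to 3.08 and 4.48 to 4.90. Mesenchymal and fibroblast markers were higher, with 9 of 15 past the filter and array means of 6.99 to 7.49. In these bulk samples, fewer cells that carry a transcript and less of it per cell cannot be told apart.

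The tight junction genes CLDN2 and OCLN and the cadherins CDH1 and CDH6 had their widest differences at 48 h, and all 4 involved the vehicle cells at that time. With vehicle from 12 h to 48 h, CLDN2 fell 4.23-fold, OCLN rose 2.36-fold and CDH2 fell 1.755-fold. With Ra at 12 h, JUP rose 1.495-fold. Each of these calls was lost when certain single arrays were left out. The share of the junction genes called was near that of all genes, 33.3% against 33.2% between vehicle times and 11.1% against 13.6% with Ra at 12 h. At 48 h CLDN2 and CDH6 were higher with Ra than with vehicle on every array, by 3.77-fold and 2.97-fold in the means. OCLN and CDH1 were 2.96-fold and 2.79-fold lower in the means. None of these 4 differences passed the main test, fitted on the 6 arrays of 48 h. CLDN2, CDH6 and OCLN passed it with a stricter filter at 7 log2 units, but none of the 4 passed with 1 array left out. CLDN1, CLDN4 and TJP1 passed in no comparison.

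**Figure D1:**
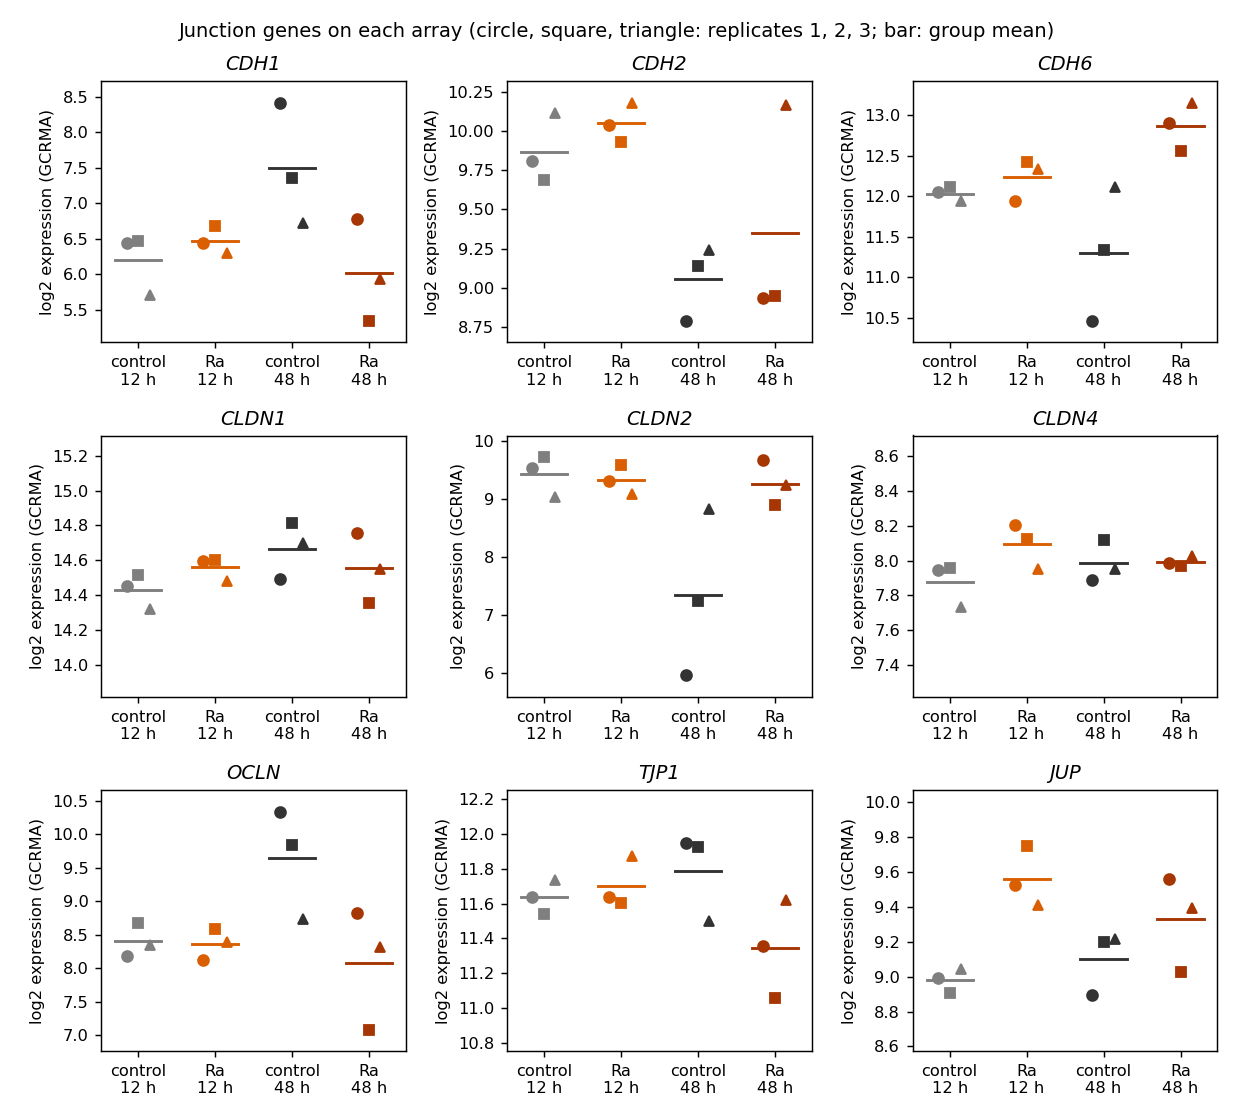
Log2 expression (GCRMA, y axis, 1 panel per gene with its own range) of the 9 junction genes on each of 12 arrays, by group on the x axis; circle, square and triangle are replicates 1, 2 and 3 and the bar is the group mean. The means of control cells at 48 h (7.35 for CLDN2, 9.64 for OCLN) sit apart from those of the other 3 groups. These lie between 9.26 and 9.43 for CLDN2 and between 8.08 and 8.40 for OCLN. Control 48 h replicate 3 does not sit apart: its OCLN value (8.75) is under Ra 48 h replicate 1 (8.83). Its CLDN2 value (8.83) is near Ra 48 h replicate 2 (8.89).

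The comparison of Ra with vehicle at 12 h asks which genes differ early. Of the 9 genes 1 passed (JUP, higher), or 11.1%, against 13.6% of all genes tested (limma, Benjamini-Hochberg adjusted p under 0.05 over 10050 genes), of which 7.34% were higher and 6.25% lower. Arrays of the 2 groups did not overlap for 1 of the 9, against 35.3% of all genes. The median log2 difference was 0.18 over the 9 genes and 0.01 over all genes. With the replicate number as a block, 2351 genes passed in place of 1366, and JUP was the only one of the 9 in both fits. A spread shared over all 12 arrays left 3 genes (0.0299%, all higher), and 0 of the 9. Before adjustment, 30.8% of all genes had a p under 0.05 and 1 of the 9 did.

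The same comparison at 48 h gave 0 calls among all genes with limma (percent called 0), so 0 of the 9. Before adjustment, 1748 genes (17.4%) had a p under 0.05, and 4 of the 9 were among them: CDH1, CDH6, CLDN2 and OCLN. With a spread shared over all 12 arrays, 1262 genes passed, 12.6% (301 higher, 3.00%, and 961 lower, 9.56%), with those same 4 genes, CDH6 and CLDN2 higher and CDH1 and OCLN lower. That spread averages the wider 48 h arrays with the tighter 12 h arrays. Arrays did not overlap for 2 of the 9, both higher with Ra, against 24.0% of all genes (5.37% higher and 18.6% lower). The median difference of all genes was -0.20, and 0.01 without Ra 48 h replicate 2, while that of the 9 genes was 0.01.

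In vehicle cells between 12 h and 48 h, 3 of the 9 passed, OCLN higher and CDH2 and CLDN2 lower, which is the same share, 33.3%, as of all genes (33.2%, with 16.6% higher and 16.6% lower). Arrays did not overlap for 4 of the 9 (CDH1 and OCLN higher, CDH2 and CLDN2 lower), against 50.8% of all genes (24.8% higher and 26.0% lower). Before adjustment, 45.8% of all genes had a p under 0.05 and 5 of the 9 did. With a spread shared over 12 arrays, 19.5% of all genes passed (9.37% higher and 10.1% lower) and 1 of the 9, CLDN2. This comparison and that of Ra at 48 h share the 3 vehicle arrays of 48 h, so a low or high value there moves both.

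**Figure D2:**
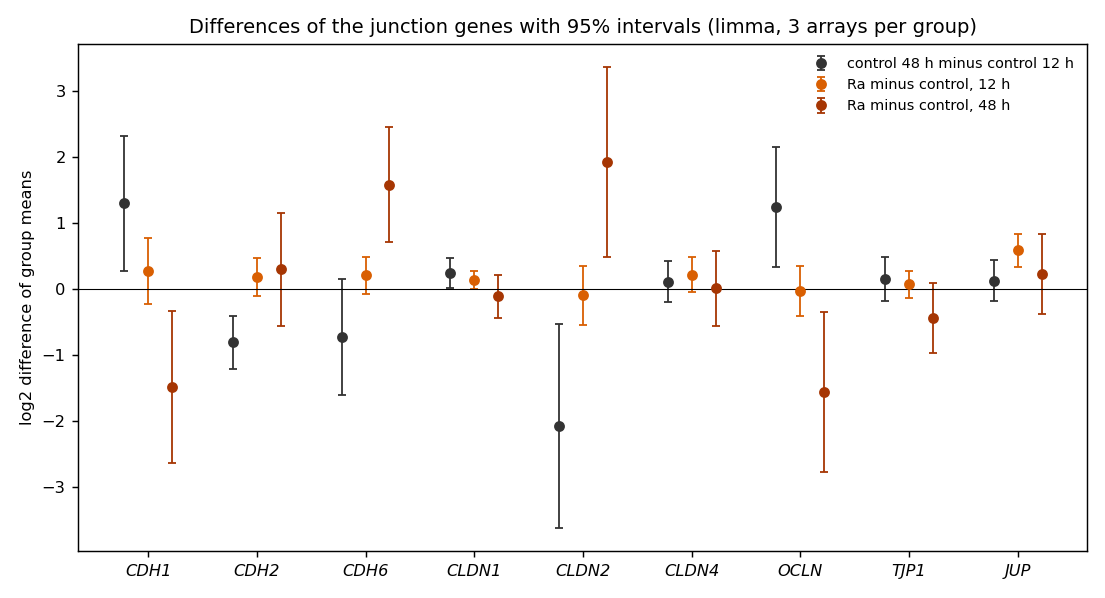
Log2 differences of group means (y axis) with 95% intervals from limma for the 9 junction genes (x axis), in 3 comparisons of 3 arrays against 3: control 48 h minus control 12 h (dark grey), Ra minus control at 12 h (orange) and Ra minus control at 48 h (brown). The grey and brown points lie on opposite sides of 0 for CDH1, CDH6, CLDN2 and OCLN, and also for CDH2, CLDN1 and TJP1. Those of CLDN4 and JUP lie on the same side. These 2 comparisons share the control arrays of 48 h.

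CLDN2, the pore-forming claudin (probe set 223509_at; chromosome X, 106900164 to 106930861 in GRCh38.p14), read 9.54, 9.71 and 9.03 in vehicle cells at 12 h. With Ra it read 9.31, 9.58 and 9.08 at 12 h and 9.66, 8.89 and 9.23 at 48 h. In vehicle cells at 48 h it read 5.97, 7.24 and 8.83. All 3 of these last arrays lay under the 9 others, and they were far from each other. The group means in descending order were 9.43 ± 0.36 (control 12 h), 9.33 ± 0.25 (Ra 12 h), 9.26 ± 0.39 (Ra 48 h) and 7.35 ± 1.43 (control 48 h; SD, n = 3 each), and the first 3 differ by less than their SDs.

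The fall of CLDN2 in vehicle cells was -2.08 ± 0.65 (log2 difference ± SE, adjusted p = 0.0471). It was lost without an intensity trend in the moderation (adjusted p = 0.0535), with no filter on low values (0.122) and without any 1 of control 12 h replicates 1, 2 and 3 and control 48 h replicates 1 and 2 (0.0718 to 0.14). Without control 48 h replicate 3 it was -2.82 (adjusted p = 0.00195), and without replicate 1 it was -1.39 (0.0718). Ra against vehicle differed by -0.10 ± 0.19 at 12 h (adjusted p = 0.766; 7 of the 9 genes were higher there). At 48 h it differed by 1.91 ± 0.63, with a 95% interval of 0.47 to 3.36 (adjusted p = 0.228). The adjusted p was under the threshold in 3 of 10 other settings, among them 12 arrays (0.0364) and a filter at 7 log2 units (0.031). It was so in 0 of the 6 fits with 1 array left out. Leaving out control 48 h replicate 1, the lowest array, gave 1.23, and leaving out replicate 3 gave 2.66.

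OCLN, the strand protein occludin (227492_at; chromosome 5, 69492547 to 69558104), had its highest mean in vehicle cells at 48 h. Vehicle cells read 8.18, 8.68 and 8.35 at 12 h and 10.34, 9.84 and 8.75 at 48 h. Cells with Ra read 8.12, 8.58 and 8.39 at 12 h and 8.83, 7.09 and 8.32 at 48 h. The vehicle arrays of 48 h were all above those of 12 h, but the lowest of them lay under 1 array with Ra at 48 h. The group means were 9.64 ± 0.82 (control 48 h), 8.40 ± 0.25 (control 12 h), 8.37 ± 0.23 (Ra 12 h) and 8.08 ± 0.89 (Ra 48 h), and the last 3 differ by less than the largest of their SDs.

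The rise of OCLN in vehicle cells was 1.24 ± 0.39 (adjusted p = 0.0462). It was lost in the fit of 12 arrays (0.0647), with no filter (0.116), with the mean of the gene's probe sets (0.057), without the trend (0.052) and without any 1 of control 12 h replicates 1, 2 and 3 and control 48 h replicates 1 and 2 (0.0916 to 0.14). Without control 48 h replicate 3 it was 1.69 (adjusted p = 0.00137), and without replicate 1 it was 0.89 (0.0955). With Ra, OCLN differed from vehicle by -0.04 ± 0.16 at 12 h (adjusted p = 0.909) and by -1.56 ± 0.53 at 48 h (adjusted p = 0.233). The 95% interval at 48 h was -2.78 to -0.35. The adjusted p at 48 h was under the threshold in 2 of 10 other settings, 12 arrays (0.038) and a filter at 7 log2 units (0.0445). It was so in 0 of the 6 fits with 1 array left out. Without Ra 48 h replicate 2 the 48 h difference was -1.07, and in the fit of 12 arrays less that array its adjusted p was 0.0713.

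A second OCLN probe set that passed the filter, 209925_at, differed by -1.96 ± 0.56 at 48 h and by 1.67 ± 0.59 between the vehicle times. It read 7.26, 6.89 and 4.96 in vehicle cells at 48 h and 4.68, 4.20 and 4.35 with Ra. Without its high vehicle replicates 1 and 2 of 48 h it would not have passed the filter. Its directions, the same as those of the first, are therefore no separate support. Another, 231022_at, was under the filter, with 7.34, 6.42 and 4.79 in vehicle cells at 48 h and 4.67, 4.35 and 4.69 with Ra. Its high arrays were vehicle replicates 1 and 2, the same arrays as on the first probe set.

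CLDN1, a sealing claudin (222549_at; chromosome 3), stayed between 14.32 and 14.81 on all 12 arrays. Its means were 14.67 ± 0.16 (control 48 h), 14.56 ± 0.07 (Ra 12 h), 14.56 ± 0.20 (Ra 48 h) and 14.43 ± 0.10 (control 12 h), with neighbours in this order closer than the larger of their SDs. Ra differed by 0.13 ± 0.06 at 12 h (adjusted p = 0.191) and by -0.11 ± 0.14 at 48 h (adjusted p = 0.698), with a 95% interval at 48 h of -0.44 to 0.21. The 48 h sign turned to 0.14 when arrays were centred on their medians. A second probe set gave 0.13 and -0.16.

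CLDN4, also counted as a sealing claudin (201428_at; chromosome 7), lay between 7.73 and 8.20. At 48 h Ra and vehicle cells had means of 7.99 ± 0.03 and 7.99 ± 0.12, a difference of 0.01 ± 0.25 with an interval of -0.56 to 0.58 (adjusted p = 0.991). At 12 h the means were 8.09 ± 0.13 and 7.88 ± 0.13, a difference of 0.22 ± 0.11 (adjusted p = 0.237). Neighbours in the order Ra 12 h, Ra 48 h, control 48 h and control 12 h were closer than the larger of their SDs. The SE at 48 h is wider than these arrays' own spread, since limma draws each gene's variance toward that of genes of like level.

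TJP1, the ZO-1 scaffold (202011_at; chromosome 15), read 11.94, 11.92 and 11.50 in vehicle cells at 48 h and 11.36, 11.06 and 11.62 with Ra. The lowest vehicle array lay under the highest Ra array, so the groups overlapped. The 12 h arrays read 11.54 to 11.73 in vehicle cells and 11.60 to 11.87 with Ra. The means were 11.79 ± 0.25 (control 48 h), 11.70 ± 0.15 (Ra 12 h), 11.64 ± 0.10 (control 12 h) and 11.35 ± 0.28 (Ra 48 h). Neighbours among the first 3 were closer than the larger of their SDs, and the last lay below control 12 h by slightly more than its own SD. The 48 h difference was -0.44 ± 0.23 (adjusted p = 0.343) and became -0.19 when arrays were centred on their medians. The 12 h difference was 0.07 ± 0.09 (adjusted p = 0.669), and a second probe set gave 0.03 and -0.19 at the 2 times.

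CDH1, E-cadherin (201131_s_at; chromosome 16, 68737292 to 68835537), read 6.44, 6.47 and 5.71 in vehicle cells at 12 h and 8.42, 7.35 and 6.72 at 48 h. With Ra it read 6.44, 6.68 and 6.30 at 12 h and 6.77, 5.34 and 5.93 at 48 h. The 48 h vehicle arrays were all above the 12 h arrays, and the lowest of them was just under the highest Ra array of 48 h. The means were 7.50 ± 0.86 (control 48 h), 6.47 ± 0.19 (Ra 12 h), 6.21 ± 0.43 (control 12 h) and 6.01 ± 0.72 (Ra 48 h), and the last 3 differ by less than the larger SD of each neighbouring pair.

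At 48 h CDH1 differed between Ra and vehicle by -1.48 ± 0.51, with an interval of -2.63 to -0.33 (adjusted p = 0.233, and 0.0419 with 12 arrays). Without control 48 h replicate 1, the highest array, this was -1.02, the smallest difference with 1 array left out. Without Ra 48 h replicate 2 it was -1.15, and in the fit of 12 arrays less that array its adjusted p was 0.0892. At 12 h it was 0.27 ± 0.22 (adjusted p = 0.45). In vehicle cells the difference between times was 1.29 ± 0.43 (adjusted p = 0.0579), under the threshold with array weights (0.0125) and in the fit of 12 arrays less Ra 48 h replicate 2 (0.0246). When control 48 h replicate 3 was left out, it was 1.68 (adjusted p = 0.011), and without replicate 1 it was 0.83 (0.0924). A second probe set of CDH1 was flat at 2.17 to 2.26 on all arrays.

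CDH2, N-cadherin (203440_at; chromosome 18), fell in vehicle cells between 12 h and 48 h. Vehicle cells read 9.81, 9.69 and 10.11 at 12 h and 8.79, 9.14 and 9.24 at 48 h, with no overlap. Cells with Ra read 10.04, 9.93 and 10.18 at 12 h and 8.94, 8.95 and 10.16 at 48 h, where replicate 3 stayed at the 12 h level. The means were 10.05 ± 0.12 (Ra 12 h), 9.87 ± 0.22 (control 12 h), 9.35 ± 0.71 (Ra 48 h) and 9.06 ± 0.24 (control 48 h), each closer to its neighbour than the larger of their SDs. The fall in vehicle cells was -0.81 ± 0.17 (adjusted p = 0.0143). It was lost with a spread shared over 12 arrays (0.0676) and without control 12 h replicate 1 (0.0505) or replicate 3 (0.0569). A second probe set gave -0.52. Ra against vehicle differed by 0.18 ± 0.12 at 12 h (adjusted p = 0.363) and by 0.29 ± 0.37 at 48 h (adjusted p = 0.699).

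CDH6, K-cadherin of the kidney (205532_s_at; chromosome 5, 31193686 to 31329146), was highest with Ra at 48 h, where it read 12.91, 12.55 and 13.15. It read 11.94, 12.42 and 12.34 with Ra at 12 h, 12.05, 12.11 and 11.94 in vehicle cells at 12 h, and 10.46, 11.33 and 12.11 in vehicle cells at 48 h. The 3 Ra arrays of 48 h lay above the 9 others. The means were 12.87 ± 0.30, 12.23 ± 0.25, 12.03 ± 0.09 and 11.30 ± 0.82 in that order. The first pair differed by more than their SDs, and the other neighbours by less than the larger SD of each pair.

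At 48 h CDH6 differed by 1.57 ± 0.38, with an interval of 0.70 to 2.44 (adjusted p = 0.192). The adjusted p was under the threshold in 6 of the 10 other settings, among them with 12 arrays (0.0145), with a filter at 7 log2 units (0.00596), after quantile normalization (0.0434), after median centring (0.0326) and with 12 arrays less Ra 48 h replicate 2 (0.0132). Leaving out single arrays of the 6 gave 1.15 to 1.98, with 0 of these 6 fits past the threshold. At 12 h the difference was 0.20 ± 0.12 (adjusted p = 0.3), and in vehicle cells between times it was -0.73 ± 0.37 (adjusted p = 0.166). This last value was -1.13 without control 48 h replicate 3 (adjusted p = 0.00931) and -0.31 without replicate 1 (0.335). All 6 CDH6 probe sets past the filter were higher with Ra at 48 h, by 1.05 to 1.91, and all 6 were lower in vehicle cells at 48 h than at 12 h, by -1.23 to -0.52. At 12 h 4 of the 6 were higher with Ra, from -0.23 to 0.38. These probe sets share the same 6 RNA samples and are not replicates.

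**Figure D3:**
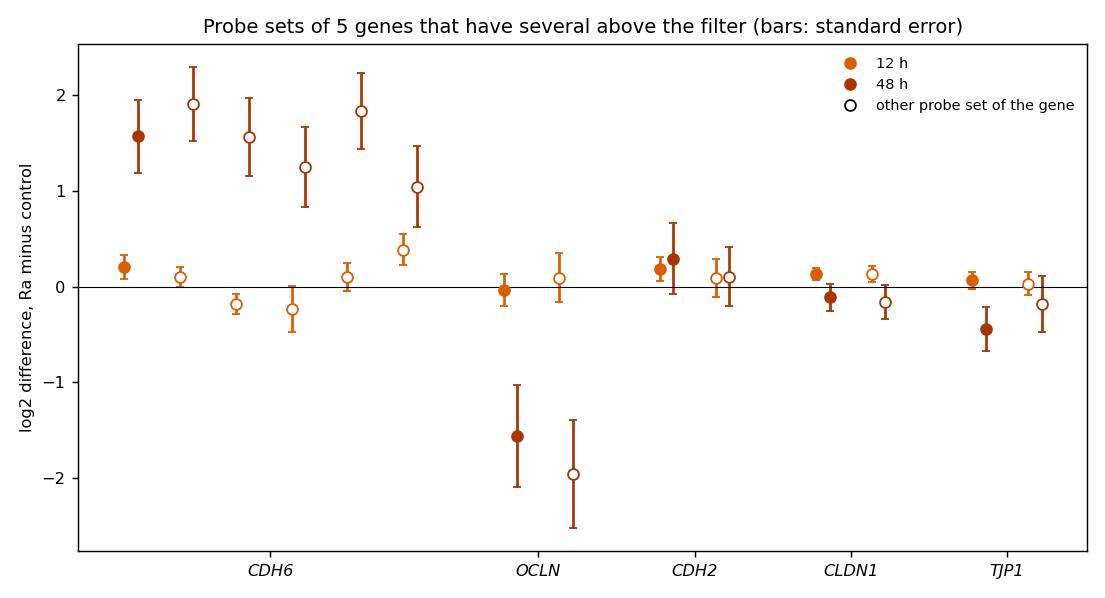
Log2 difference of Ra minus control (y axis, bars are standard errors from limma) at 12 h (orange) and 48 h (brown) for every probe set past the filter of the 5 genes with more than 1 (x axis); filled points are the probe set that stands for the gene. The 6 CDH6 probe sets range from 1.05 to 1.91 at 48 h and from -0.23 to 0.38 at 12 h. Both OCLN probe sets lie at or under -1.56 at 48 h, but the open one passed the filter only through high vehicle arrays of 48 h.

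JUP, plakoglobin, a catenin of both adherens junctions and desmosomes (201015_s_at; chromosome 17, 41754609 to 41786711), read 9.52, 9.75 and 9.41 with Ra at 12 h and 9.00, 8.90 and 9.04 in vehicle cells at 12 h. The groups did not overlap. The rise was 0.58 ± 0.11 with a 95% interval of 0.33 to 0.83 (adjusted p = 0.017, and 0.01 with the replicate block). It was lost with a spread shared over 12 arrays (adjusted p = 0.45, and 0.0487 when Ra 48 h replicate 2 was left out of those) and when Ra 12 h replicate 1 (0.0579) or 2 (0.0575) or control 12 h replicate 1 (0.055) or 2 (0.0557) was left out. Over all 6 fits of 5 arrays its value was 0.49 to 0.66. At 48 h JUP read 9.56, 9.03 and 9.39 with Ra and 8.89, 9.20 and 9.22 with vehicle, and the difference was 0.22 ± 0.26 (adjusted p = 0.674). The means in order were 9.56 ± 0.17 (Ra 12 h), 9.33 ± 0.27 (Ra 48 h), 9.10 ± 0.18 (control 48 h) and 8.98 ± 0.07 (control 12 h), each within the larger SD of its neighbour.

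The effect of Ra at 48 h minus that at 12 h was tested over all 12 arrays. Of the 9 genes 0 passed, against 2 of all genes, both lower (0.0199%). Before adjustment, 1933 genes (19.2%) had a p under 0.05, and so did 4 of the 9. The 4 had differences of 2.01 ± 0.74 for CLDN2 (adjusted p = 0.176), 1.37 ± 0.45 for CDH6 (0.148), -1.75 ± 0.60 for CDH1 (0.159) and -1.53 ± 0.62 for OCLN (0.203). Without control 48 h replicate 1, the effects were 1.33 for CLDN2 (adjusted p = 0.318), 0.95 for CDH6 (0.254) and -1.29 for CDH1 (0.316), and without Ra 48 h replicate 2 that of OCLN was -1.03 (0.215). Without control 48 h replicate 3, they were 2.76 for CLDN2 (adjusted p = 0.0185), 1.77 for CDH6 (0.0217) and -2.14 for CDH1 (0.0497), which passed, and -1.98 for OCLN (0.0562). CDH1 also passed without Ra 48 h replicate 1 (-2.13, adjusted p = 0.0396), and CDH6 after median centring (1.63, 0.0401) or quantile normalization (1.51, 0.0459). For JUP the difference was -0.36 ± 0.26 (adjusted p = 0.472), so that its 12 h rise was not shown to differ from its 48 h value.

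**Figure D4:**
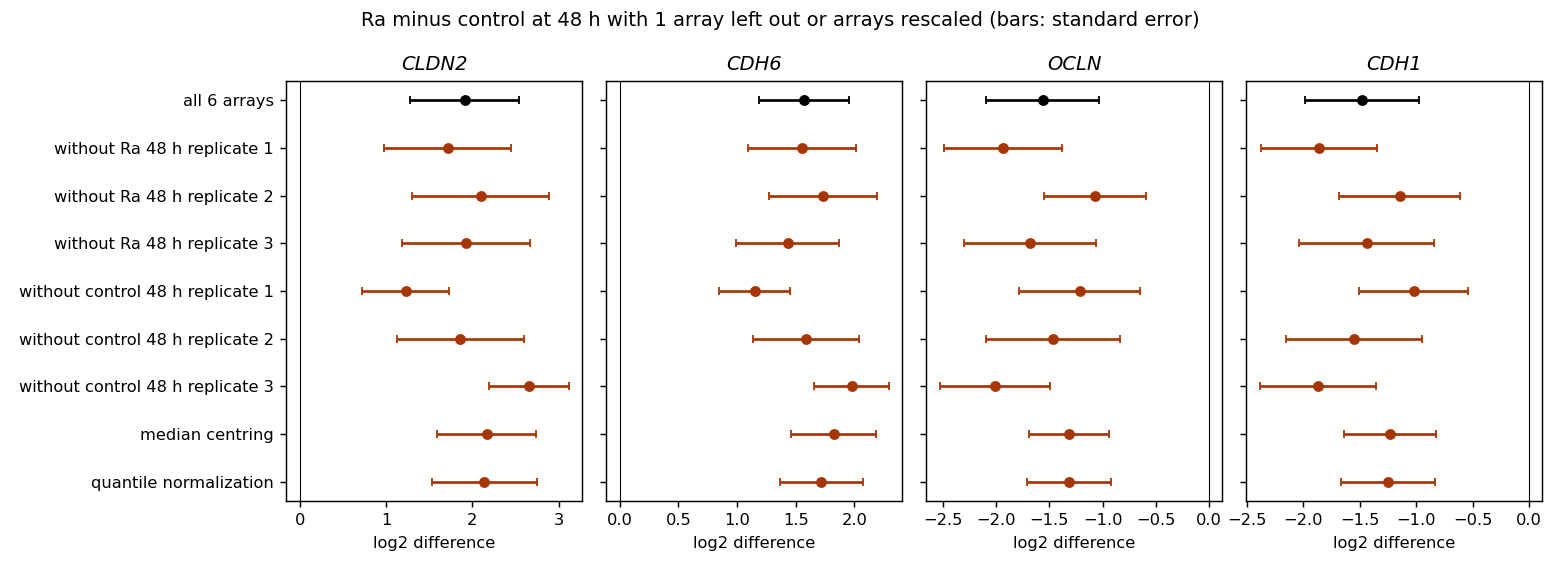
Log2 difference of Ra minus control at 48 h (x axis, bars are standard errors) for CLDN2, CDH6, OCLN and CDH1 with all 6 arrays (black), with 1 array left out in turn and with the arrays rescaled (brown). The sign held in each setting drawn; CLDN2 ranges from 1.23 to 2.66 and OCLN from -2.01 to -1.07 with 1 array left out.

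Relative to the shift of all genes at 48 h, median centring gave 2.17 for CLDN2, 1.82 for CDH6, -1.31 for OCLN and -1.23 for CDH1. Within the Ra-treated cells, whose times were not compared by a test, the mean at 48 h minus that at 12 h was -0.06 for CLDN2, -0.29 for OCLN, -0.46 for CDH1, 0.64 for CDH6 and -0.70 for CDH2. For CLDN2 and OCLN these gaps were smaller than the larger SD of the 2 Ra groups. For CDH2, Ra 48 h replicate 3 lay within the range of the Ra 12 h arrays.

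The 9 genes did not follow one pattern over the arrays. Of their 36 pairs, 3 had a Pearson r over 0.7 and 4 an r under -0.7 over the 12 arrays, which share 4 groups and 1 array normalization, so the values are descriptions. CDH1 and OCLN ran together (r = 0.929, and 0.783 over the 9 arrays without control 48 h). CDH6 and CLDN2 had r = 0.83 over 12 arrays and 0.012 over those 9. CLDN2 and OCLN had -0.742 over 12 and 0.714 over 9, so their opposition rests on the 3 vehicle arrays of 48 h.

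By the same measure over 12 arrays, the genes most like CLDN2 among the 10050 were CENPF (r = 0.98), MKI67 (0.971) and GALNT11 (0.968). MKI67 read 11.40, 11.33 and 11.16 in vehicle cells at 12 h, 9.26, 9.90 and 10.65 at 48 h, and 10.83 to 11.25 over the 6 Ra arrays, so its lowest arrays were the vehicle arrays of 48 h, as for CLDN2. The most like OCLN were PLA2G12A (0.979), CFAP36 (0.974) and GOLPH3L (0.968), and CFAP36 also led for CDH1 (0.966), before TMED5 (0.965) and TLCD2 (0.96). For CDH6 they were SEMA6A (0.959), GALNT14 (0.952) and TMTC4 (0.949), for CDH2 CLDN11 (0.961), E2F7 (0.953) and GLO1 (0.951), and for JUP CRACD (0.93), GOLM2 (0.924) and HIVEP1 (0.91).

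Other genes of the junctions were taken from lists, and in the test of Ra at 48 h none of them passed. The calls given here for the lists come from the 6 arrays of each comparison. At 12 h 9 of the 99 list genes tested passed, against 13.6% of all genes, and all 9 were lost in the fit of 12 arrays (adjusted p 0.423 to 0.688). Between the vehicle times 29 of the 99 passed, against 33.2% of all genes (16.6% higher and 16.6% lower). Of these 29, 14 also passed with 12 arrays: CLDN11, VCL, ACTN4, PCDH7, PPL, EVPL, GJB2, GJC1, ADAM17, ADAM15, KRT8, EPCAM, VIM and FN1. The other 15 were lost there (adjusted p 0.0567 to 0.218). Of 18 other claudins 7 were measured above the filter. At 12 h 0 of these 7 passed, and in vehicle cells from 12 h to 48 h CLDN16, known for magnesium handling in the thick ascending limb, rose by 1.30 ± 0.33 (adjusted p = 0.026) and CLDN11 fell by 0.70 ± 0.17 on the log2 scale (adjusted p = 0.0233). Of 21 measured tight junction scaffolds, polarity proteins and membrane proteins, YBX3, a Y-box protein that binds ZO-1, rose with Ra at 12 h (0.30 ± 0.07, adjusted p = 0.0354) and the scaffold cingulin, CGN, fell (-0.94 ± 0.16, adjusted p = 0.0146). In vehicle cells 4 of the 21 rose and 0 fell, against 16.6% of all genes each way, and 0 of the 21 passed with 12 arrays. The 4 were the adhesion molecule JAM2 (1.34), the polarity proteins PATJ (0.70) and PARD6B (0.50) and VAPA (0.38). Without its vehicle arrays of 48 h (6.55, 5.24 and 5.56) JAM2 would not have passed the filter, so its rise is no separate support. The list's median difference in vehicle cells was 0.16, against 0.01 for all genes.

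Of 14 measured adherens junction linkers, β-catenin (CTNNB1), which binds cadherin tails and carries Wnt signals, rose with Ra at 12 h (0.43 ± 0.12, adjusted p = 0.0468). In vehicle cells 3 of the 14 fell and 0 rose, against 16.6% of all genes each way. They were vinculin (VCL, -1.32), which links junctions to actin, and the actin cross-linkers ACTN4 (-0.59) and ACTN1 (-0.28, adjusted p = 0.181 with 12 arrays). LIMA1, an actin-binding linker to the cadherin complex, read -1.63 ± 0.39 with Ra at 48 h. It passed the threshold in the fit of 12 arrays (adjusted p = 0.0143) but not in that of 6 (0.191). Of 5 other cadherins measured, CDH16, the kidney-specific cadherin, rose in vehicle cells (0.64) and PCDH7 fell (-1.06). PCDH7 read 1.33 ± 0.31 with Ra at 48 h (adjusted p = 0.0102 with 12 arrays and 0.191 with 6).

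Of 8 desmosome genes measured, 0 passed with Ra at 12 h. The means of 7 were higher, against 51.9% of all genes, and the list's median was 0.30, against 0.01 for all genes. In vehicle cells the plakin periplakin, PPL, rose (1.36), as did the desmosomal cadherin DSG2 (0.40), and envoplakin, EVPL, fell (-0.87). At 48 h EVPL (1.04) and the plakophilin PKP2 (-1.36) passed with 12 arrays (adjusted p = 0.0303 and 0.0467) but not with 6 (0.193 and 0.25). Of 5 gap junction genes, the connexin GJB2 was higher with Ra at 12 h (0.79 ± 0.18, adjusted p = 0.0307). Without those Ra arrays (5.91, 5.86 and 5.76) GJB2 would not have passed the filter, so this difference is no separate support. On every 48 h array GJB2 read under the filter's 5 log2 units. In vehicle cells 3 of the 5 fell and 0 rose, against 16.6% of all genes each way. They were GJB2 (-1.53), the connexin GJC1 (-1.0004) and the channel protein PANX1 (-0.70). The list's median was -0.70, against 0.01 for all genes.

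Of 8 measured transcription factors known to repress or keep up junction genes, the epithelial factor ELF3 fell with Ra at 12 h (-0.62 ± 0.16, adjusted p = 0.0439). In vehicle cells KLF4 (0.90) and KLF5 (0.74) rose and TWIST1, a repressor of CDH1, fell (-0.99). The other repressors measured did not pass and went both ways: SNAI2 (0.78), ZEB1 (0.25), SNAI1 (-0.10) and TCF3 (-0.36). Of 7 measured proteases that cut junction proteins, 0 passed with Ra at 12 h. In vehicle cells ADAM17 rose (0.95) and ADAM15 (-0.64) and MMP7 (-0.70) fell. At 48 h ADAM15 (0.93) and ADAM17 (-0.81) passed with 12 arrays (adjusted p = 0.0174 and 0.0419) but not with 6 (0.208 and 0.255).

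Of 11 measured epithelial markers, EPCAM (0.34 ± 0.07) and the protease inhibitor SPINT1 (0.79 ± 0.17) rose with Ra at 12 h and CD24 fell (-0.42 ± 0.05; adjusted p = 0.0254, 0.0274 and 0.00643). In vehicle cells EPCAM (0.57), SPINT1 (0.54) and the integrin ITGB4 (0.61) rose and keratin 8, KRT8, fell (-0.58). Of 9 mesenchymal markers measured, 0 passed with Ra at 12 h, where 8 were higher in the means (51.9% of all genes were) and 5 without overlap (18.4%). Of the 11 epithelial markers, 9 were higher there in the means, 4 were higher without overlap and 1 was lower without overlap (16.9% of all genes). The median was 0.28 over the mesenchymal list and 0.23 over the epithelial list, against 0.01 for all genes. In vehicle cells fibronectin, FN1, rose (0.28) and vimentin, VIM, fell (-0.34). PAX8, a transcription factor of the renal epithelium, fell with Ra at 12 h (-0.46 ± 0.09, adjusted p = 0.0225). The part of any of these genes in the values of CLDN2, OCLN, CDH1 and CDH6 was not tested.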

How the data were processed

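Total RNA of 12 HK-2 samples was hybridised to Affymetrix arrays, 3 per group; group, time and replicate number come from the labels. The authors deposited log2 values made with GCRMA, per the submitters' processing notes; its version is not given in the sources used here. GCRMA corrects background by probe sequence and normalizes arrays together, and it shrinks low signals.

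Of 54675 probe sets, 41097 had 1 symbol, 1801 several and 11777 none in the platform annotation; 41043 Entrez numbers matched RefSeq and changed 0 symbols. Those with 1 symbol and values of 5 log2 units or more on at least 3 arrays entered (17339), and the one with the highest mean stood for its gene. No 2 arrays were identical (0 pairs). The members and gene lists were chosen with earlier results of these data known.

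Each comparison was fitted with limma 3.58.1 (R 4.3.3), moderated with an intensity trend, on the arrays of the groups compared, since spreads differed between times; the difference between times used all 12. The fit was tested on simulated data. Same-numbered arrays deviated together at 12 h (r = 0.182, 0.421 and 0.344 across genes), each best with its own number, which the labels do not explain, but not at 48 h (0.301, -0.219 and 0.097) or between vehicle times (0.025, -0.023 and 0.065). p-values measure the spread between these samples. Named list genes are up to 4 per comparison past the threshold in either fit, by size, apart from the repressors given beside TWIST1. Alternatives were other fits, filters, probe set rules, normalizations, array weights, moderation without the trend, the replicate block and leaving out each array; figures used matplotlib 3.10.9.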

Additional observations from a re-analysis of the deposited data

How the results depend on the processing

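Of 608 values of the 9 genes under other settings, 540 kept their direction and their side of the threshold, 26 newly passed, 25 no longer passed and 17 changed sign. The sign changes outside arrays left out were OCLN at 12 h with the mean of its probe sets (0.0289), CLDN1 at 48 h after median centring (0.14), and in the difference between times CLDN1 (0.0225) and CLDN4 (0.0573) after median centring and CLDN4 (0.0779) after quantile normalization. With 1 array left out, signs changed at 12 h for OCLN (-0.15 to 0.10), CLDN2 (-0.30 to 0.0431) and TJP1 (-0.0184 to 0.12), at 48 h for CDH2 (-0.12 to 0.50) and CLDN4 (-0.043 to 0.0727), and in the difference for CDH2 (-0.30 to 0.32). At 12 h, 1366 genes and 1 of the 9 passed: 3 and 0 with all 12 arrays, 219 genes with 12 arrays less Ra 48 h replicate 2 (a setting chosen after seeing the data), 506 with no filter, 2351 with the replicate block, and 293 to 1388 genes and 0 to 1 of the 9 with 1 array left out. At 48 h, 0 genes passed: 1262 and 4 of the 9 with all 12 arrays, 1943 and 2 with 12 arrays less that array, 307 and 3 with a filter at 7, 641 and 1 after quantile normalization (317 higher, 324 lower), 714 and 1 after median centring (388 higher, 326 lower), 131 and 1 with the replicate block, and 0 to 71 genes and 0 of the 9 with 1 array left out. For the difference between times, 2 genes passed: 7 with array weights, 5 with no filter, 43 with a filter at 7, 944 and 1 of the 9 after quantile normalization, 856 and 1 after median centring, 60 with the replicate block, and 1 to 1041 genes and 0 to 3 of the 9 with 1 array left out. In vehicle cells, 3334 genes and 3 of the 9 passed: 1955 and 1 with all 12 arrays, 2091 and 1 with no filter, 5 of the 9 with array weights, 1 without the intensity trend, and 1429 to 4583 genes and 0 to 6 of the 9 with 1 array left out. Fewer arrays leave fewer degrees of freedom; other causes were not tested. At 48 h and between vehicle times, where same-numbered arrays share only a number and not every array correlated best with its own, the replicate block took CDH6 at 48 h (adjusted p = 0.0379) and CDH1 in vehicle cells (0.0239) under the threshold and CLDN2 in vehicle cells over it (0.061). With 3 arrays a group, even the interval of CLDN4 at 48 h spans -0.56 to 0.58.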
